A study of Homo sapiens with 346 samples.

Results

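Cells labelled HepG2 were compared after methanol fixation and without it, as 82 fixed against 67 live single cells, out of 334 cells with values in the series. The columns of the HepG2 gene table were taken by their live or fixed prefix, and 1 live and 1 fixed column with equal values for all 29551 genes were left out from 68 live and 83 fixed columns. HepG2 is a line derived from a human liver carcinoma. These cells were grown in DMEM with serum, and per the study's methods each suspension was divided into a part sorted live after propidium iodide staining and a part kept in 80% methanol for 1 week, rehydrated in buffered saline with albumin and an RNase inhibitor and then sorted. Each cell was lysed in its own well, copied into full-length cDNA by Smart-seq2, a method that primes on poly(A) tails, and made into a Nextera library. Values are TPM, the length-normalized share of a transcript in what was assigned in a cell, so that a gene can have a lower share because others have a higher one. The gene table did not sum to the same TPM in each cell: the sums averaged 880870 (756507 to 954258) in live and 956007 (758299 to 999672) in fixed cells, which enters the ratios of TPM as given. The study ran more than 1 experiment on this line and no label says which cell came from which, so each treatment counts as 1 sample, no test between treatments was possible, and the SDs below are over cells and are not replicate errors. Libraries of fixed cells were made after the storage week, and treatment and library batch cannot be told apart.

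The markers went against the label. Of 17 hepatocyte markers, 9 could be analysed here and 0 reached a mean of 5 TPM. SERPINA1, the gene of alpha-1-antitrypsin, was the most abundant of them with 2.31 TPM in live against 3.9998 TPM in fixed cells and a median of 0 in both, while APOA1, TTR and HNF4A, which are defining genes of liver cells, had means near 0. The summed level of the 9 hepatocyte markers had a median over cells of 0.121 TPM (live) and 0 TPM (fixed). Of 12 luminal breast markers 8 passed a mean of 5 TPM, with a median summed level of 1094 TPM for live and 3043 TPM in fixed cells, TFF1, a secreted trefoil peptide, being the most abundant. GATA3, a transcription factor of luminal and urothelial cells, had 218 TPM in live against 236 TPM in fixed cells, and ESR1, the estrogen receptor, 48.4 TPM in live against 27.4 TPM in fixed cells. Of 8 markers of squamous epithelium and urothelium, 2 passed, the uroplakins UPK2 and UPK3A, plaque proteins of the bladder surface. Markers of intestine (CEACAM5 alone), stomach and lung, pancreas and kidney tubule, blood and fibroblasts gave 1, 0, 0, 0 and 0 genes over 5 TPM. The cells are therefore named by their label only.

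Live cells had a median of 2400000 reads (1500000 to 3700000) and fixed cells 2000000 (1000000 to 2800000), as the smallest step of the deposited CPM values shows. Genes above 0 TPM numbered 13915 ± 1048 per live cell and 12144 ± 1686 per fixed cell, which is 1771 fewer. Above 1 TPM the difference was 771 genes, and over 45 pairs of cells matched on total reads it was 1436 genes. A group of 6 fixed columns, numbers 1, 2, 3, 4, 16 and 73, were more alike than any other cells: their correlation on ln(TPM + 1) ran from 0.956 to 0.973, against at most 0.942 for all other pairs. These had 15736 ± 1198 genes above 0 TPM, against 11860 ± 1364 in the other 76 fixed cells. Left out, they moved the difference in genes to 2055. The gene table sums of the 6 columns averaged 999491 TPM (999375 to 999672), against 952574 TPM (758299 to 987262) in the other 76. A single live cell had 20.5% of its reads assigned, far below the median of 75.7%, and 4 live and 1 fixed cell had under 60%.

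Methanol fixes by dehydration: it precipitates proteins and permeabilizes membranes, leaving nucleic acids in place without crosslinks. Immediate early genes are transcribed within minutes of a stimulus, and their mRNAs are short-lived, which makes them a common readout of how cells were handled.

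A gene was tested for size when the mean of its live and fixed means was at least 5 TPM, which 7436 genes passed, and was called when its ratio of means was at least 2-fold. A gene can pass through live or through fixed cells alone, so that counts of calls in a list describe the genes that passed and support nothing. With TPM as given, 470 genes (6.32%) were called lower and 2.47% higher in fixed cells. A rescaling, which brings each cell to a common median ratio over 6513 genes found in at least 90% of cells, gave 627 lower (8.43%) and 93 higher (1.25%). Its factors averaged 0.944 in live and 1.07 in fixed cells. The median log2 ratio of all tested genes was 0.20 as given and 0.02 rescaled, so that ratios are read below against these values. All 470 genes called lower as given were also lower rescaled, whereas 92 genes were called higher on both scales. Calls were rarer at high levels: after rescaling 11.4% of 3883 genes between 5 and 20 TPM, 6.30% of 2617 between 20 and 100 TPM and 1.92% of 936 above 100 TPM were called lower. Without the 6 similar columns 443 genes (5.94%) were called lower and 2.52% higher as given, and 593 (7.96%) and 1.36% rescaled.

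**Figure D1:**
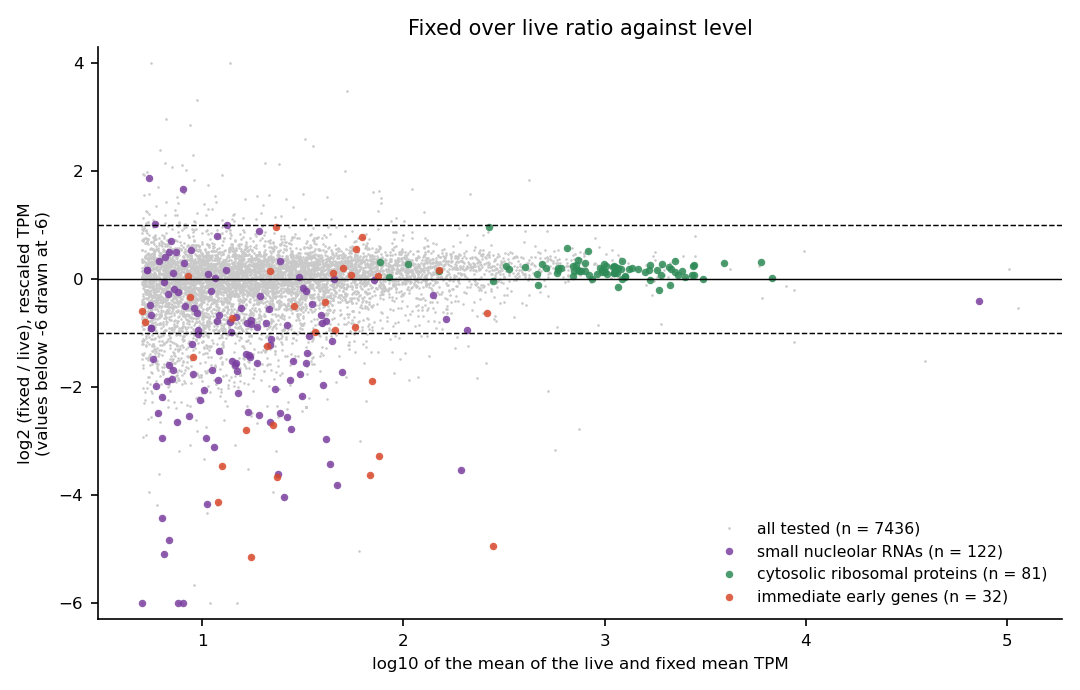
Each point is 1 of 7436 tested genes, with the log10 of its mean level in TPM on the x axis and the log2 ratio of rescaled fixed over live means on the y axis; dashed lines mark 2-fold. Small nucleolar RNAs (purple) and immediate early genes (red) reach far below the lower line, while the 81 cytosolic ribosomal protein genes (green) lie in a narrow band near 0.

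AP-1 genes had a median log2 ratio of -2.75 (-3.01 rescaled) over 4 tested genes, the lowest of the gene lists at the filter of 5 TPM but not at 20 TPM, where it was -1.63 and repeated gene families had -2.23. FOS, a subunit of the AP-1 transcription factor, ranged from 0 to 1760.0 TPM with a median of 414 in live cells and from 0 to 357 TPM with a median of 4.69 in fixed cells. No fixed cell reached the live median, although the ranges overlap, and 7 of 67 live and 54 of 82 fixed cells had under 10 TPM. Its log2 ratio was -4.78 (-4.95 rescaled). Transcripts of FOS were found in 95.5% of live cells (exact binomial 95% interval 87.5 to 99.1, counting error only) and in 62.2% of fixed cells (50.8 to 72.7). JUN, its AP-1 partner, had 22.4 ± 24.8 TPM in live against 1.43 ± 2.58 TPM in fixed cells, and JUNB, another subunit, 105.3 ± 71.04 TPM in live against 33.995 ± 31.5 TPM in fixed cells. Of 13 AP-1 genes 4 were tested and 3 were called lower on both scales, against 8.43% of all genes rescaled. BATF, an AP-1 subunit best known from lymphocytes, was the exception with 68.8 TPM in live against 81.04 TPM in fixed cells. The other 9 were below the filter. FOSB (5.04 and 0.0466 TPM, live and fixed means), ATF3 (5.47 and 0.903 TPM), MAFF, MAFG, MAFK and BATF3 had lower fixed means, while FOSL2 (3.74 and 4.16 TPM), JUND (1.69 and 1.92 TPM) and FOSL1 (0.978 and 1.05 TPM) had higher ones as given and log2 ratios of -0.11, -0.19 and -0.18 rescaled.

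Of 49 other immediate early genes 28 were tested, with a median log2 ratio of -0.42 (-0.67 rescaled). After rescaling 9 of 28 were called lower (32.1% against 8.43% of all tested genes) and 0 higher (1.25% of all tested genes). CTGF, CYR61, PPP1R15A and AMOTL2, like JUN above, had fixed means under 5 TPM and passed the filter through live cells alone, so that these counts describe the genes that passed and support nothing. DUSP1, a phosphatase that ends MAP kinase signalling, ranged from 3.03 to 470.1 TPM with a median of 103.8 in live and from 0 to 68.5 TPM with a median of 5.71 in fixed cells. IER2, a nuclear protein induced by growth factors, had 134.96 ± 79.7 TPM in live against 16.1 ± 13.9 TPM in fixed cells. PPP1R15A (GADD34), which directs a phosphatase to eIF2-alpha, had 43.2 ± 27.8 TPM in live against 3.82 ± 5.98 TPM in fixed cells. For DUSP1, IER2, PPP1R15A, JUN and FOS, 0 of 82 fixed cells lay above the live median. EGR1, a zinc finger factor, had 38.2 ± 37.5 TPM in live against 6.70 ± 12.7 TPM in fixed cells, and 7 fixed cells lay above its live median. CTGF and CYR61, matricellular targets of the YAP pathway, had live and fixed means of 33.998 and 1.11 TPM and of 22.9 and 2.29 TPM, and AMOTL2, a feedback regulator of the same pathway, 28.4 and 4.61 TPM. Their log2 ratios were -4.81, -3.27 and -2.60 as given. KLF6 and GADD45B were called lower as well, at -1.20 (-1.44 rescaled) and -1.04 (-1.24 rescaled). ZFP36, which binds AU-rich elements and promotes mRNA decay, had 45.9 TPM in live against 27.1 TPM in fixed cells and was not called. Its relative ZFP36L1 and the antiproliferative gene BTG2 lay in the other direction with log2 ratios of 0.97 (0.79 rescaled) and 1.19 (0.96 rescaled), BTG2 being called higher as given only.

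The promoters of 4 of these genes are shown with matches to elements known from such genes and to a general core promoter element. Each run is the 250 bases before the RefSeq start on GRCh38.p14, with matches in capitals, searched on both strands: the cAMP response element TGACGTCA, the CArG box bound by serum response factor, and the core element TATAAA.
FOS (chr14:75278578-75278827, plus strand): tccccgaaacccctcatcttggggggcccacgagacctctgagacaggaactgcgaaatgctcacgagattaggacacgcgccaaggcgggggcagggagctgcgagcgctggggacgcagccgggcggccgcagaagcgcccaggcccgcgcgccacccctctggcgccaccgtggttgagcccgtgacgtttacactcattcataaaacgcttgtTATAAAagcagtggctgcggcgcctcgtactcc
EGR1 (chr5:138465229-138465478, plus strand): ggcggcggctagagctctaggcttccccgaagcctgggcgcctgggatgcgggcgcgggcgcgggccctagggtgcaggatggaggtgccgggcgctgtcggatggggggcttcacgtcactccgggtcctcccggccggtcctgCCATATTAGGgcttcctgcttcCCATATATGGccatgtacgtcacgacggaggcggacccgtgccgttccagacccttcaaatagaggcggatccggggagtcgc
DUSP1 (chr5:172771196-172771445, minus strand): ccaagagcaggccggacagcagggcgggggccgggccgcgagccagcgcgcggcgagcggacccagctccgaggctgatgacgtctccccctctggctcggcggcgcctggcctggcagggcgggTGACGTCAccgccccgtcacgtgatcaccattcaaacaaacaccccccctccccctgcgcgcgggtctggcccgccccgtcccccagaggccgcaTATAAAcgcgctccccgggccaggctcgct
PPP1R15A (chr19:48872171-48872420, plus strand): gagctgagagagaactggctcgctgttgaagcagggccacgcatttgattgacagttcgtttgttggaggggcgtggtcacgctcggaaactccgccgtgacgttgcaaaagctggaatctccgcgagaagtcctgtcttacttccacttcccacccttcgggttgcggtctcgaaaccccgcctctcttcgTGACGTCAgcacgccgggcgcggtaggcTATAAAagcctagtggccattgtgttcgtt
In these windows EGR1 has 2 CArG boxes, and DUSP1 and PPP1R15A have 1 cAMP response element and 1 TATAAA each. FOS has 1 TATAAA and no exact match to the other elements. Variant spellings and bases further upstream were not searched, so the lack of a match does not show that a promoter lacks an element. Over 35116 promoter windows of the same length, 1.65% hold the cAMP response element, 1.16% the CArG box and 10.7% TATAAA. Among 26 tested AP-1 and other immediate early genes with a window, TATAAA was in 6 of the 11 called lower and in 4 of the 15 others, the cAMP response element in 2 and 0, and the CArG box in 1 and 0. These are matches of letters, not measured binding.

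**Figure D2:**
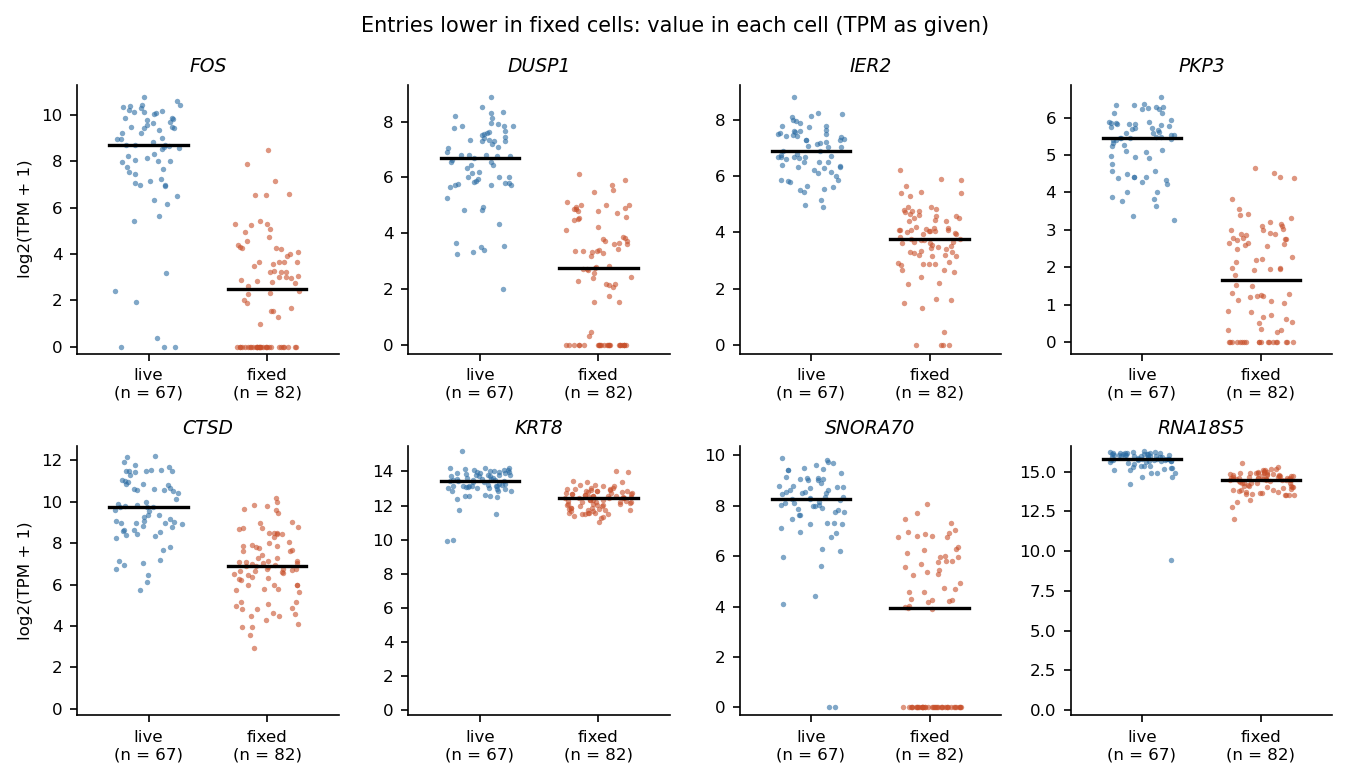
Points are single cells, live (blue, 67) and fixed (red, 82), with log2(TPM + 1) on the y axis, and bars are medians. For FOS, DUSP1, IER2, PKP3, SNORA70 and RNA18S5 no fixed cell lies above the live median, whereas CTSD and KRT8 overlap more.

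Small nucleolar RNAs (snoRNAs) held the most lower calls among the noncoding lists. These nuclear RNAs guide chemical changes of ribosomal RNA, C/D box members 2'-O-methylation and H/ACA box members pseudouridylation. Most are cut out of introns and carry no poly(A) tail, so that reads on them in a poly(A)-primed library can also come from unspliced host RNA. Of those tested (76 of the C/D box class, 41 of the H/ACA class and 5 others), 55 were called lower and 6 higher as given (6.32 and 2.47% of all tested genes), and 62 (50.8% against 8.43% of all tested genes) and 3 (2.46% against 1.25%) rescaled, with a median of -0.74 (-1.03 rescaled). The C/D box class (76 tested, median -0.77 (-1.08 rescaled)) and the H/ACA class (41 tested, -0.69 (-1.01 rescaled)) were divided after the values were seen. SNORA70, an H/ACA member in an intron of RPL10 whose near-identical copies make its reads uncertain, ranged from 0 to 937 TPM with a median of 309 in live and from 0 to 266 TPM with a median of 14.2 in fixed cells. SNORD14B was above 0 in 46 of 67 live and 11 of 82 fixed cells, SNORD88B in 47 and 8, and SNORA9 in 33 and 11. With medians over cells in place of means, the median over the list is 0. SNORD50A and SNORD5 had the highest rescaled ratios, 1.67 and 1.86, at fixed means of 12.5 and 8.67 TPM. SNORD110, SNORD19 and SNORA71B were listed at 0 in all fixed cells.

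Sequences of 4 snoRNAs with low ratios at a mean level over 20 TPM follow, from GENCODE on GRCh38. Capitals mark the C box TGATGA (these letters are not in SNORD88B) and the D box CTGA of C/D box members and the ACA box, 3 bases from the 3' end, of SNORA9.
SNORD14B (chr11:17075779-17075868, minus strand): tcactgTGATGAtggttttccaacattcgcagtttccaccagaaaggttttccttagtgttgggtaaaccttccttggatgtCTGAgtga
SNORD12C (chr20:49278940-49279028, plus strand): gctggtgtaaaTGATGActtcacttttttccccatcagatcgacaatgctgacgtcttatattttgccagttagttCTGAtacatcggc
SNORD88B (chr19:50799032-50799122, minus strand): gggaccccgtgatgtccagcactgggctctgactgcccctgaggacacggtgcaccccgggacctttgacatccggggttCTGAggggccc
SNORA9 (chr7:44985378-44985510, minus strand): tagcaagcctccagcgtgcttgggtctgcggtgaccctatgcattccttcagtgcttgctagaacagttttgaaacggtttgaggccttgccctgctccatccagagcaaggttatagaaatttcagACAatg
SNORD14B lies in an intron of RPS13, a ribosomal protein gene, SNORD12C in an intron of the noncoding gene ZFAS1, and SNORA9 in an exon of the noncoding gene SNHG15. SNORD14B had a log2 ratio of -3.54 (-3.82 rescaled) and RPS13 0.11 (-0.10 rescaled). SNORD12C had -3.07 (-3.44 rescaled) and ZFAS1 0.64 (0.43 rescaled). SNORA9 had -3.69 (-4.04 rescaled) and SNHG15 0.19 (0.02 rescaled). Of 89 tested snoRNAs with a tested host on their strand, 77 had a lower rescaled ratio than the host, and over the 89 the median difference of the snoRNA from its host was -1.36, while the 52 hosts had a median of 0.11 and 1 of them, SNHG17, was called lower, at -0.83 (-1.05 rescaled). Entries such as SNORD110 and SNORD19 passed the filter on the mean through live cells alone, so that these counts describe the entries that passed and support nothing. SNHG25, another noncoding host, was called higher as given, at 1.21 (0.87 rescaled). Among 20 tested snoRNA host and nuclear long noncoding RNAs, such as GAS5 (400.3 and 469.6 TPM), MALAT1 (482 and 534 TPM) and NEAT1 (8.02 and 9.24 TPM), a fixed list without SNHG17 and SNHG25, 0 were called on either scale, against 8.43% of all tested genes lower and 1.25% higher rescaled.

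Entries of microRNA hairpins, a list added after the values were seen, also had mostly lower calls among those called. Of 49 tested 23 were called lower (46.9% against 8.43% of all tested genes) and 3 higher (6.12% against 1.25%) after rescaling. Some, such as MIR616 (29.9 and 0 TPM) and MIR4429 (21.3 and 0.418 TPM), passed the filter through live cells alone, so that the counts describe the entries that passed and support nothing. MIR5047 ranged from 0 to 2886 TPM with a median of 992 in live and from 0 to 714 TPM with a median of 74.6 in fixed cells, and no fixed cell reached the live median. It lies at chr17:64501214-64501313 in an intron of DDX5, an RNA helicase gene with 436 TPM in live against 401 TPM in fixed cells. The log2 ratios were -2.87 (-3.17 rescaled) for MIR5047 and -0.12 (-0.30 rescaled) for DDX5. For 30 hairpin entries inside introns the median rescaled ratio was -1.69, and the 18 tested hosts of 20 of them had a median of 0.02. These medians cover unlike sets. Of the 20 entries with a tested host, 15 had a lower rescaled ratio than the host, and the median difference of entry from host was -0.93. Full-length cDNA cannot tell a hairpin from intron sequence around it. MIR5047, an entry of 100 bases, had a live mean of 1001 TPM, above that of its host. TPM is normalized by length, so that levels of such short entries, and the 5 TPM filter on them, are not directly comparable with those of mRNA.

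The 4 ribosomal RNA entries had opposite directions. RNA18S5 (18S) ranged from 712 to 79498 TPM with a median of 57322 in live and from 4140.2 to 48884 TPM with a median of 23312 in fixed cells, with a log2 ratio of -1.29 (-1.52 rescaled) and no fixed cell above the live median. RNA45S5, the precursor, had 17.7 ± 9.47 TPM in live against 5.62 ± 5.49 TPM in fixed cells. RNA28S5 (28S) was higher in fixed cells with 141.9 ± 163.3 TPM in live against 697 ± 488 TPM in fixed cells and a log2 ratio of 2.30 (1.84 rescaled), and 79 of 82 fixed cells lay above the live median. In live cells its values fell into separate sets: 6 cells had at least 553 TPM and the others at most 157.2 TPM. Those 6 cells had 51.1 to 69.3% of reads assigned and FOS between 0 and 1255 TPM. RNA5-8S5 had 10.02 TPM in live against 26.8 TPM in fixed cells. Mature ribosomal RNA has no poly(A) tail. Leaving its entries out and bringing each cell to the same sum gave 591 genes (7.95%) lower and 1.35% higher.

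Of 11 other short noncoding RNAs 4 were called lower and 2 higher after rescaling (36.4 and 18.2% against 8.43 and 1.25% of all tested genes). The spliceosomal RNAs RNU1-1, RNU12, RNU4-2 and RNU5A-1 were called lower, with log2 ratios of -1.53 (-1.78 rescaled), -2.27 (-2.74 rescaled), -1.27 (-1.66 rescaled) and -1.21 (-1.48 rescaled). The call of RNU12 was lost with medians over cells, at 0. RNU2-1, the most abundant of the list, had 111.5 TPM in live against 70.7 TPM in fixed cells without a call, and RNU4ATAC 0.25 (0.14 rescaled). RN7SK, which holds back the elongation factor P-TEFb, and RN7SL2, an RNA of the signal recognition particle, were called higher on both scales, and RMRP, the RNA of RNase MRP, as given only, at 1.18 (0.73 rescaled). RN7SL2 had 7.93 ± 12.99 TPM in live against 57.3 ± 60.8 TPM in fixed cells and was above 0 in 36 of 67 live and 70 of 82 fixed cells. RN7SL1, its near-identical copy, had 59.4 TPM in live against 115.6 TPM in fixed cells, and how reads divide between the copies is uncertain. The same holds for BMS1P17, SPDYE16, TRIM74 and NPIPB3, members of recently duplicated families, which were called lower at -2.37 (-2.67 rescaled), -3.36 (-3.62 rescaled), -2.23 (-2.44 rescaled) and -1.48 (-1.64 rescaled).

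Lower calls were also found among genes of the secretory route and the cell surface. Of 36 tested lysosomal genes, 8 were called lower (22.2% against 8.43% of all tested genes) and 0 higher after rescaling, with a median of 0.00 (-0.19 rescaled). CTSF and SGSH, and LRPAP1 in the next list, had fixed means under 5 TPM and passed the filter through live cells alone. The counts of both lists describe the genes that passed and support nothing. CTSD, the aspartic protease cathepsin D, ranged from 52.3 to 4813 TPM with a median of 860.0 in live and from 6.66 to 1174 TPM with a median of 118.8 in fixed cells, and 4 of 82 fixed cells lay above the live median. The acid hydrolase genes GAA, SGSH and GUSB had log2 ratios of -1.85 (-2.04 rescaled), -1.56 (-1.82 rescaled) and -1.57 (-1.81 rescaled), and GRN, the progranulin gene, -1.14 (-1.37 rescaled). Other lysosomal genes lay above 0: NPC2, a cholesterol carrier, had 56.8 TPM in live against 94.3 TPM in fixed cells, and ASAH1, acid ceramidase, 41.9 TPM in live against 69.5 TPM in fixed cells. Of 44 genes of folding and glycosylation in the endoplasmic reticulum 10 were called lower after rescaling (22.7% against 8.43% of all tested genes), 7 as given and 0 higher, led by MAN1B1, a mannosidase that marks misfolded glycoproteins, with 29.5 ± 12.6 TPM in live against 5.90 ± 5.13 TPM in fixed cells, and OS9, a lectin of the same pathway, with 70.9 ± 26.1 TPM in live against 21.5 ± 15.02 TPM in fixed cells. QSOX1 and PRKCSH, which form disulfides and trim glucose, were called lower too, at -1.69 (-1.88 rescaled) and -1.62 (-1.84 rescaled). The translocon parts SSR4 and SEC61B had 445 and 682 TPM and 341 and 522 TPM in live and fixed cells and were not called.

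Junction genes had medians below that of all genes, -0.36 (-0.56 rescaled) for 15 genes of desmosomes and adherens junctions and -0.24 (-0.43 rescaled) for 14 of tight junctions, with 3 and 4 called lower (20 and 28.6% against 8.43% of all tested genes rescaled) and 0 higher. PKP3, NECTIN4, TJP3 and CGN had fixed means under 5 TPM and passed the filter through live cells alone. These counts describe the genes that passed and support nothing. PKP3, a plakophilin of desmosomes, ranged from 8.58 to 92.96 TPM with a median of 42.8 in live and from 0 to 24.3 TPM with a median of 2.17 in fixed cells. All 67 live and 63 of 82 fixed cells had some, but no fixed cell reached the live median, and its log2 ratio was -3.39 (-3.61 rescaled). CDH3 (P-cadherin) and NECTIN4 were also called lower, at -1.40 (-1.58 rescaled) and -2.04 (-2.25 rescaled), and CDH1 (E-cadherin) had 108.4 TPM in live against 68.6 TPM in fixed cells without a call. Among claudins, the strand-forming proteins of tight junctions, CLDN4 had 353 ± 199 TPM in live against 111.1 ± 85.9 TPM in fixed cells, CLDN3 281 ± 115.6 TPM in live against 136.4 ± 59.3 TPM in fixed cells and CLDN12 5.12 TPM in live against 7.55 TPM in fixed cells. TJP3 was called lower at -2.07 (-2.29 rescaled), whereas its relative TJP1 had 0.56 (0.38 rescaled). Of 39 integrin, laminin and plexin genes only 3 passed 5 TPM: ITGB4, of the hemidesmosome, with 33.5 ± 18.95 TPM in live against 9.65 ± 13.3 TPM in fixed cells, PLXNB2, a semaphorin receptor, with 16.6 ± 7.04 TPM in live against 4.85 ± 4.33 TPM in fixed cells, and ITGB1 with 65.1 TPM in live against 63.9 TPM in fixed cells. ITGB4 and PLXNB2 were called lower, PLXNB2 with a fixed mean under 5 TPM. Below the filter, the laminin chains LAMA5 and LAMB2 had 6.299 and 1.71 TPM and 7.71 and 1.65 TPM, while LAMC1, ITGB6 and ITGAV had 2.55 and 5.75 TPM, 2.80 and 6.12 TPM and 1.91 and 4.08 TPM. PIEZO1, a mechanically gated channel, had 14.7 TPM in live against 5.85 TPM in fixed cells.

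Keratins, the intermediate filaments of epithelia, differed among themselves. KRT8 ranged from 971 to 38433 TPM with a median of 11001 in live and from 2100.2 to 16781 TPM with a median of 5487 in fixed cells, a log2 ratio of -0.99 (-1.16 rescaled), and 2 of 82 fixed cells lay above the live median. KRT18, which pairs with KRT8 in filaments, had 6414 ± 3237 TPM in live against 5700.2 ± 2396 TPM in fixed cells and 32 such cells. KRT19 had 2327 TPM in live against 1486 TPM in fixed cells and KRT80 78.5 TPM in live against 46.7 TPM in fixed cells. KRT7 (5.79 and 12.2 TPM), called higher as given only, and KRT10 (12.2 and 18.5 TPM) lay in the other direction. Among nuclear envelope genes LMNA, the lamin A and C gene, was called lower with 162.3 ± 95.04 TPM in live against 49.9 ± 42.6 TPM in fixed cells, and BANF1, which bridges DNA and lamins, had 369 TPM in live against 585 TPM in fixed cells.

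After rescaling 9 of 25 cholesterol and fatty acid genes were called lower (36% against 8.43% of all tested genes) and 0 higher, at a median of -0.08 (-0.23 rescaled). MVD, an enzyme of the mevalonate pathway, had 67.1 ± 45.5 TPM in live against 16.2 ± 14.1 TPM in fixed cells. The sterol-responsive factors SREBF1 and SREBF2 had -1.69 (-1.93 rescaled) and -1.22 (-1.43 rescaled), and the sterol enzyme LSS -1.14 (-1.31 rescaled). Others were near the middle of all genes, such as FDPS with 247 TPM in live against 255 TPM in fixed cells. Of 88 solute carriers 12 were called lower after rescaling (13.6% against 8.43% of all tested genes) and 0 higher, and 11 lower and 1 higher as given. The lower ones included SLC1A5, a glutamine transporter, with 179.8 ± 88.8 TPM in live against 56.9 ± 36.1 TPM in fixed cells, SLC3A2, the shared chain of amino acid exchangers, with -1.38 (-1.56 rescaled), and SLC2A1, the glucose transporter GLUT1, with -1.19 (-1.37 rescaled). In glycolysis the phosphofructokinases PFKL and PFKP had -1.04 (-1.26 rescaled) and -0.81 (-1.01 rescaled), against 0.37 (0.19 rescaled) for GAPDH, 0.80 (0.61 rescaled) for PKM and 0.53 (0.36 rescaled) for ENO1.

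Among 32 tested SR and hnRNP genes, RNA-binding proteins of splicing, 3 were called lower, which at 9.38% is near the 8.43% of all tested genes after rescaling, including HNRNPM and SRSF4 at -1.69 (-1.87 rescaled) and -1.05 (-1.29 rescaled). HNRNPA1 had 599.7 TPM in live against 710.1 TPM in fixed cells without a call, and HNRNPL, called higher as given only, had 1.24 (0.95 rescaled). In the heat shock list CDC37, a kinase-loading partner of HSP90, had 133.4 ± 45.1 TPM in live against 45.98 ± 29.3 TPM in fixed cells and 0 fixed cells above the live median, and HSPA1A and HSPA1B, stress-induced and near-identical copies, had -1.18 (-1.36 rescaled) and -1.23 (-1.43 rescaled). HSPA8, their constitutive relative, had 622 TPM in live against 903 TPM in fixed cells, and HSP90AA1 1.08 (0.88 rescaled).

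Lists of core machinery had few calls, where 8.43% of all tested genes were called lower and 1.25% higher after rescaling (6.32 and 2.47% as given), and medians above that of all genes. In a list of 8 to 18 genes a share of 8.43% is about 1 gene, so that a count of 0 there is near the background. Of 81 cytosolic ribosomal protein genes 0 were called lower, and RPS27L, a paralog of RPS27, was the only one called higher, as given but not rescaled (1.15 (0.97 rescaled)). Their median was 0.39 (0.16 rescaled), and the rescaled ratios ran from -0.21 to 0.97. RPL41 had 4885 TPM in live against 7076 TPM in fixed cells and RPS27 6247 TPM in live against 7273 TPM in fixed cells. The 77 mitochondrial ribosomal protein genes had 0.38 (0.21 rescaled), the 37 of respiratory complex I 0.44 (0.23 rescaled), the 11 of complex IV 0.47 (0.27 rescaled) and the 16 of ATP synthase 0.49 (0.30 rescaled), all without a call on either scale. Chaperonin subunits, which fold actin and tubulin, had 0.41 (0.25 rescaled) over 8 genes, CCT3 with 259 TPM in live against 318 TPM in fixed cells. Sm and LSm proteins, which bind spliceosomal RNAs, had 0.45 (0.27 rescaled) over 18. Of 35 proteasome genes PSMD3 alone was called, lower after rescaling (2.86% against 8.43% of all tested genes), at -0.83 (-1.04 rescaled). Of 40 translation initiation factors EIF4G1, the scaffold of cap binding, was the only call (2.5% against 8.43% of all tested genes rescaled), with -1.16 (-1.38 rescaled), and EEF1A1, the main elongation factor, had 1789 TPM in live against 2692 TPM in fixed cells. The median reference transcript was 785 bases for the ribosomal proteins and 696 for complex I, 2164.5 for chaperonin subunits and 2562.5 for translation initiation factors, against 2722 for all tested protein-coding genes.

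Cytoskeletal genes were mixed. ACTB had 5074 ± 2988 TPM in live against 6676 ± 2555 TPM in fixed cells, TMSB4X, which binds monomeric actin, 7427 ± 3487 TPM in live against 12092 ± 5996 TPM in fixed cells, and CFL1, which severs filaments, 1369 TPM in live against 2192 TPM in fixed cells. LASP1 and ACTN4, actin-bundling and adhesion proteins, were called lower at -1.61 (-1.80 rescaled) and -1.03 (-1.25 rescaled). Of 9 tubulins 0 were called (8.43% of all tested genes lower and 1.25% higher, rescaled), with TUBA1B at 0.37 (0.23 rescaled) and TUBB4B at -0.75 (-0.89 rescaled). Of 16 tested S100 and annexin genes, calcium-binding proteins, 1 was called higher after rescaling (6.25% against 1.25% of all tested genes), S100A4 at 1.197 (1.06 rescaled), and 1 lower (6.25% against 8.43% of all tested genes), the phospholipid-binding ANXA6 at -1.72 (-1.82 rescaled). S100A11 had 1868 ± 823 TPM in live against 3779 ± 1762 TPM in fixed cells and S100A10 608 ± 406 TPM in live against 1185 ± 908 TPM in fixed cells, log2 ratios of 1.02 (0.80 rescaled) and 0.96 (0.75 rescaled), S100A11 being called higher as given only. Antioxidant genes had a median of 0.47 (0.25 rescaled) over 23 with 0 called lower (8.43% of all tested genes, rescaled). PRDX1, a peroxiredoxin, had 693 TPM in live against 1188 TPM in fixed cells, FTH1 and FTL, the ferritin chains, 1798 and 2136 TPM and 439 and 735 TPM.

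**Figure D3:**
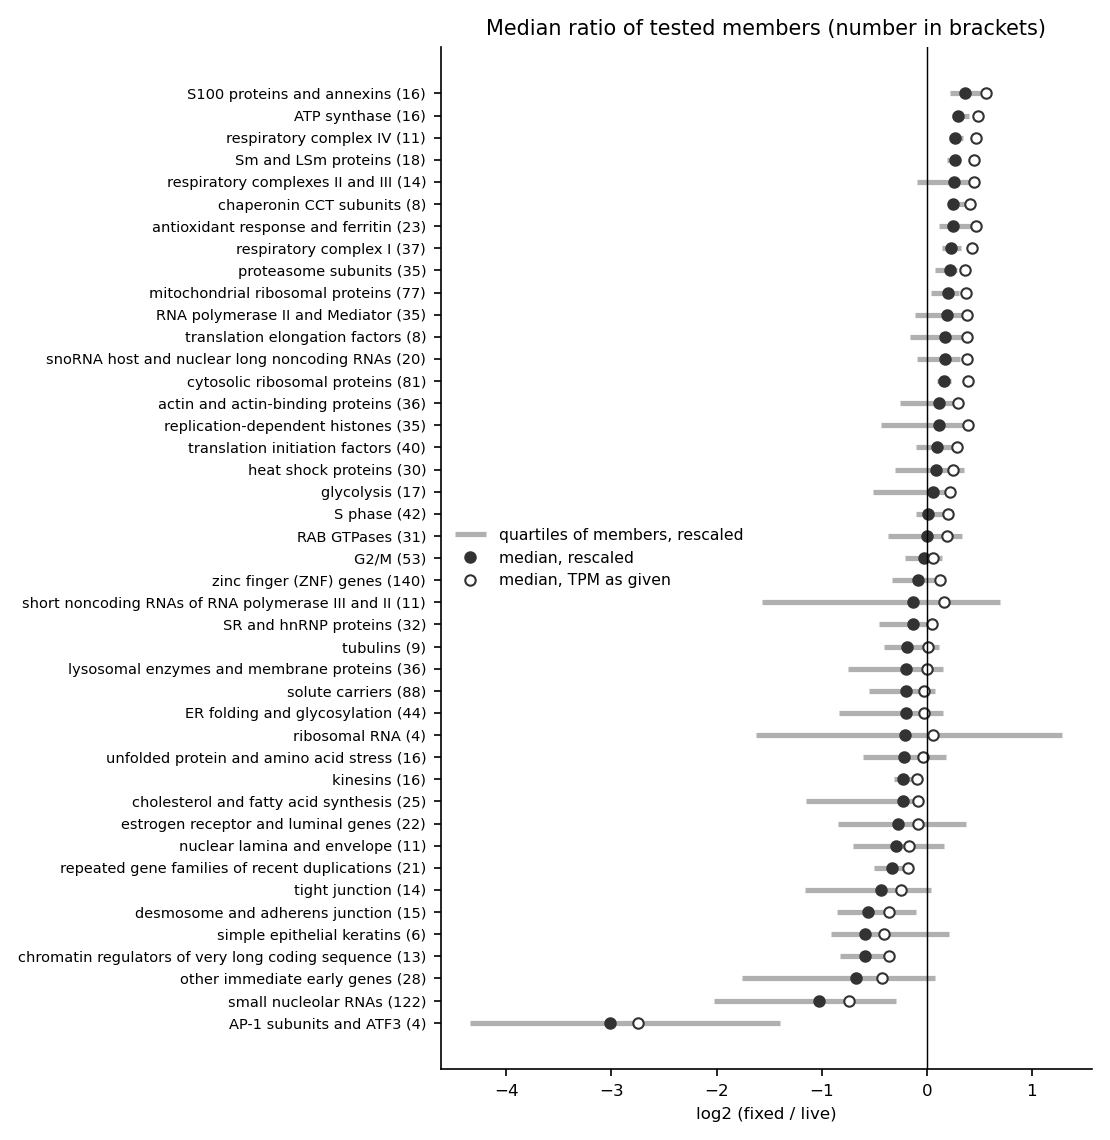
Each row is a gene list with the number of tested members in brackets; filled points are the median log2 ratio of fixed over live after rescaling, open points the median with TPM as given, and bars the quartiles of the rescaled member values. Drawn are lists with at least 4 tested members, without the marker lists, a list not reported and those added after the values were seen. AP-1 and snoRNA lists lie lowest, other immediate early, very long chromatin, keratin and junction genes next, and the respiratory complex I and IV, proteasome and ribosomal protein lists lie above 0 with short bars.

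Fewer genes were called higher than lower in fixed cells. The 10 largest rescaled ratios among 3553 genes of at least 20 TPM were those of CEACAM6, RN7SL2, CALML5, GPX2, MIR4714, IFI6, RNA28S5, ADIRF, HLA-DRB1 and MSMB. CEACAM6, an adhesion glycoprotein of epithelia, ranged from 0 to 237 TPM with a median of 0 in live and from 0 to 2038 TPM with a median of 0.666 in fixed cells, and its means of 6.28 and 98.6 TPM lay far above these medians. It was above 0 in 14 of 67 live (20.9%, 11.9 to 32.6) and 45 of 82 fixed cells (54.9%, 43.5 to 65.9). GPX2, a glutathione peroxidase, had medians of 0.383 and 17.9 TPM, MSMB, a secreted protein first known from prostate, of 0 and 8.46, and CALML5, a calmodulin-like protein of differentiating epithelium, of 3.73 and 22.2. On the opposite end the 10 lowest were ACTG2, FOS, SNORA9, LOC107985919, SNORD14B, PPP1R15A, DUSP1, SNORD88B, PKP3 and SNORA70. ACTG2, a smooth muscle actin, led by mean because of 1 live cell with 7498 TPM. Without that cell its live mean was 5.26 TPM, against 3.28 TPM in fixed cells.

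Grouped after their values were seen, higher genes included a urothelial set, interferon-stimulated genes and class II HLA genes. Of 16 tested genes of urothelial differentiation 7 were called higher (background 1.25%) and 0 lower after rescaling. The list was drawn up because of these values, so the count describes it and supports nothing. UPK2 ranged from 0 to 664 TPM with a median of 51.3 in live and from 0 to 2733 TPM with a median of 174.2 in fixed cells, and 59 of 82 fixed cells lay above the live median. UPK3A had 39.96 ± 76.1 TPM in live against 109 ± 184.1 TPM in fixed cells. UPK1A had 10.2 TPM in live against 32.6 TPM in fixed cells, but a median of 0.347 TPM in live and of 0 in fixed cells, so that the direction turned with the median. PPARG, a nuclear receptor of urothelial and fat cell differentiation, and PSCA, a surface antigen, had 1.496 (1.34 rescaled) and 1.58 (1.51 rescaled). TFF1 ranged from 0 to 18731 TPM with a median of 607 in live and from 44.6 to 13709 TPM with a median of 2436 in fixed cells, with a ratio under 2-fold for the means.

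Of 18 interferon-stimulated genes 5 were called higher (27.8% against 1.25% of all tested genes) and 0 lower after rescaling. This list too was drawn up after the values were seen, and its count supports nothing. ISG15, a ubiquitin-like modifier, had 68.2 ± 66.7 TPM in live against 185.2 ± 214 TPM in fixed cells, IFI6, a mitochondrial antiviral protein, 18.7 ± 31.2 TPM in live against 83.6 ± 147.6 TPM in fixed cells, IFITM1, which blocks viral entry, 1.12 (1.07 rescaled), and OAS1, a sensor of double-stranded RNA, 2.65 (2.08 rescaled). With medians over cells OAS1 had 0 and IFITM1 0.80, which ends both calls. IFITM3, the most abundant, had 364 TPM in live against 538 TPM in fixed cells without a call. The class II genes HLA-DRB1, HLA-DRB5 and HLA-DQB1 were called higher at 1.80 (1.64 rescaled), 1.74 (1.57 rescaled) and 1.34 (1.19 rescaled); HLA-DRB1 and HLA-DRB5 are close copies whose reads may be divided uncertainly. The class I gene HLA-C was called lower after rescaling, at -0.87 (-1.06 rescaled), and its partner B2M had 0.55 (0.37 rescaled).

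CDKN1A (p21), which halts the cell cycle, ranged from 0 to 197 TPM with a median of 8.88 in live and from 0 to 565 TPM with a median of 25.9 in fixed cells. SESN1, a stress response gene, was called higher at 1.58 (1.44 rescaled), while FDXR, a mitochondrial reductase, was called lower at -1.11 (-1.26 rescaled). For other genes nearly all fixed cells lay above the live median. CLTC, the clathrin heavy chain, ranged from 14.6 to 109.7 TPM with a median of 60.1 in live and from 48.9 to 281 TPM with a median of 148.4 in fixed cells, and 80 of 82 fixed cells lay above the live median. PABPC1, which binds poly(A) tails, had 255 ± 68.1 TPM in live against 553 ± 188.9 TPM in fixed cells, and 77 fixed cells lay above its live median. TIMP1, a protease inhibitor, had 52.2 ± 40.7 TPM in live against 130.96 ± 67.004 TPM in fixed cells. DDIT4, a stress gene that restrains mTORC1, was called higher at 1.43 (1.11 rescaled), and XBP1, a factor of the unfolded protein response, had 242 TPM in live against 379 TPM in fixed cells. CLTC, PABPC1 and TIMP1 were picked after their values were seen.

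**Figure D4:**
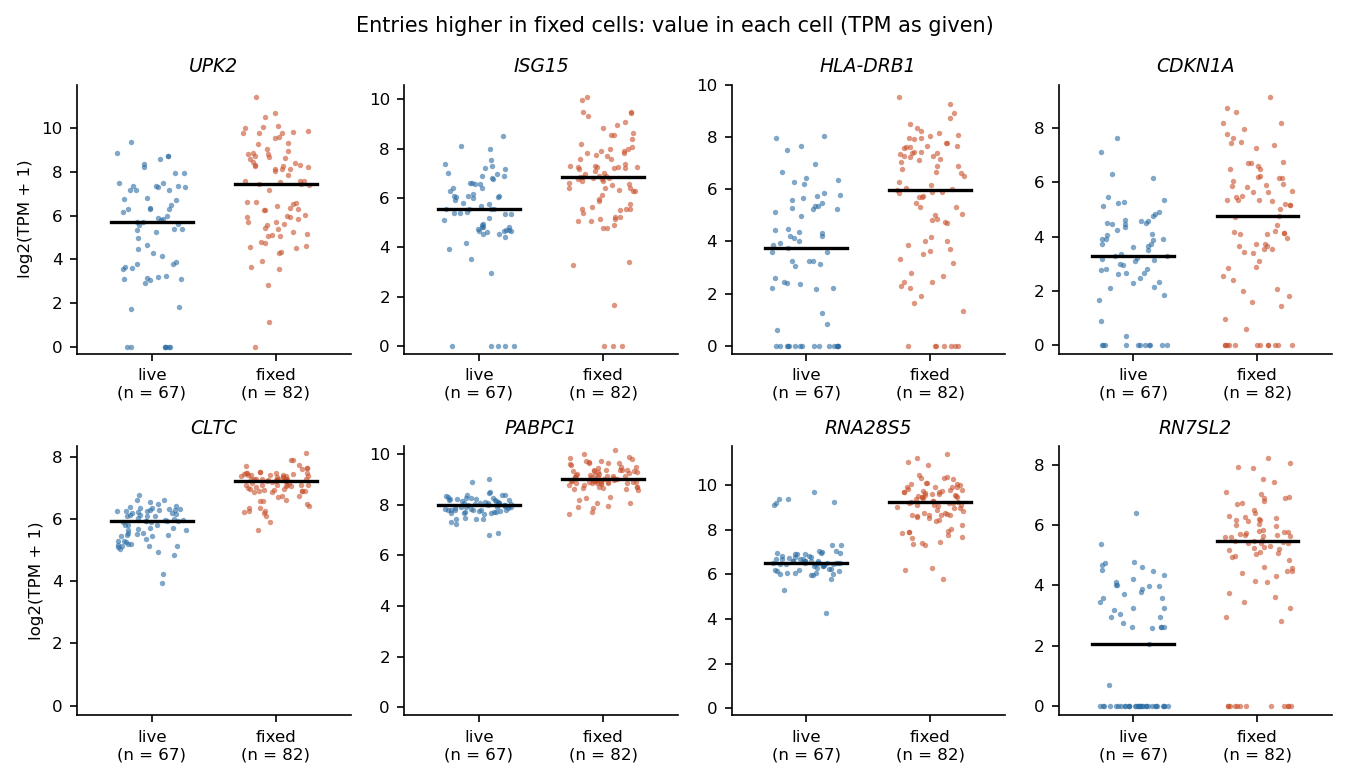
Points are single cells, live (blue, 67) and fixed (red, 82), with log2(TPM + 1) on the y axis, and bars are medians. CLTC and PABPC1 shift as a whole, UPK2, ISG15, HLA-DRB1 and CDKN1A spread widely in both treatments, and RNA28S5 has 6 live cells well above the other live cells.

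Of length and GC content of the transcript, GC content moved more with the ratio. A canonical GENCODE transcript gave length and GC content for 6799 of 6816 tested protein-coding genes (99.8%), which were divided into 5 groups of equal size by either feature. In the GC-richest group (median 60.5% GC) 320 of 1360 genes (23.5%) were called lower after rescaling, and in the GC-poorest (median 37.9%) 4 of 1360 (0.294%). The median log2 ratios were -0.18 (-0.37 rescaled) and 0.31 (0.14 rescaled). The groups between had 1.32, 1.84 and 8.38% called lower, in order of rising GC. Genes called lower had a median GC content of 58.999% over 481 genes, against 46.05% over the 6254 genes without a call and 51.5% over the 64 called higher. Over 6799 genes Pearson's r between GC content and rescaled log2 ratio was -0.36 and Spearman's rho -0.33, as a description across genes that share the same libraries.

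The ratio moved less with length, and not in step. The shortest group (295 to 1500 bases) had 2.28% called lower and a median of 0.37 (0.18 rescaled), the middle group 12.1% and the longest (4820 to 23524 bases) 5.22% with a median of 0.18 (-0.01 rescaled). Long transcripts are poorer in GC, with a median of 42.1% in the longest and 53.5% in the shortest group. Within the GC-richest group the share called lower was 4.78% of 481 genes for the shortest transcripts, then 18.95%, 45.6% and 50% with rising length, and 39.7% of 63 genes for the longest. In the GC-poorest group it stayed between 0 and 0.624% at all lengths. The contrast of GC groups narrowed with level: rescaled medians of the richest and the poorest were -0.66 and 0.09 between 5 and 20 TPM, -0.30 and 0.17 between 20 and 100 TPM and 0.03 and 0.22 above 100 TPM.

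**Figure D5:**
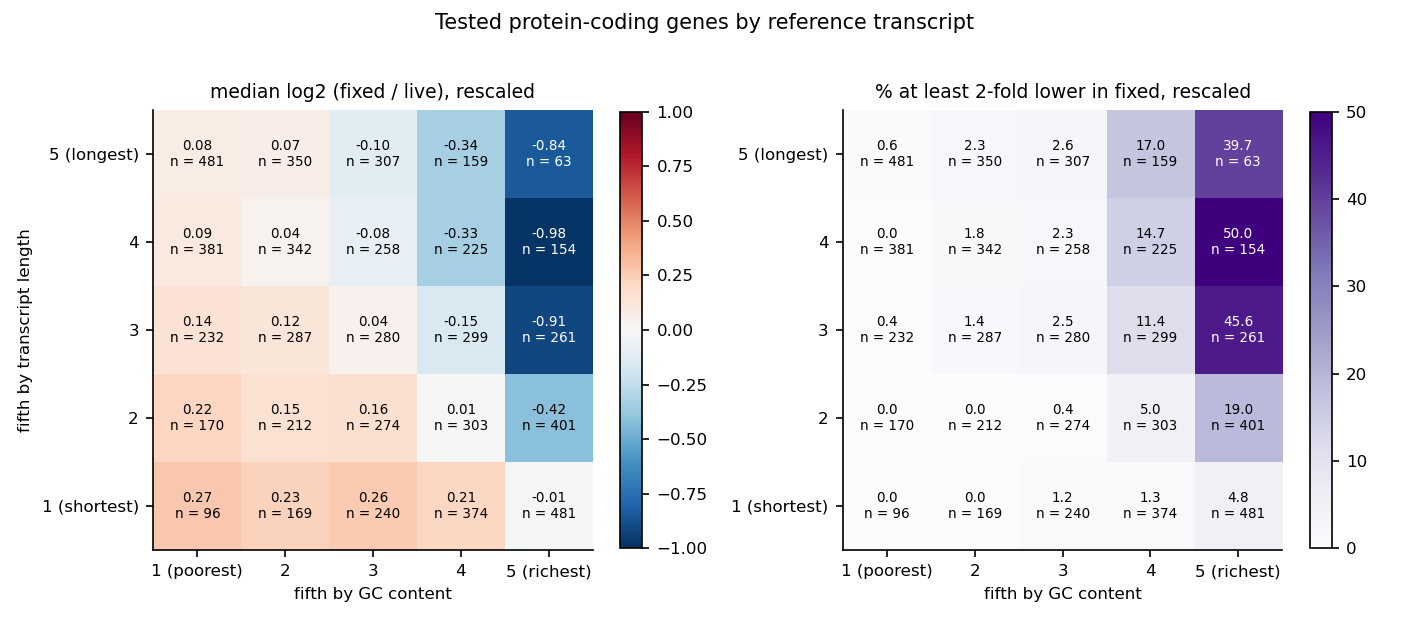
Tested protein-coding genes (6799) in 5 groups by GC content (x axis) and 5 by transcript length (y axis); colour and number give the median log2 ratio of fixed over live after rescaling (left) and the percent of genes at least 2-fold lower in fixed cells (right), with n per field. The share called lower rises toward GC-rich transcripts of middle and long length and stays low for short ones.

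The reference transcripts of PKP3, MVD, THEM6, PIEZO1, CTSD, ITGB4 and PLXNB2 have 66.7, 65.5, 65.9, 64.3, 63.6, 63.6 and 63.1% GC, whereas FOS has 52.8% and CLTC, higher in fixed cells, 41.5%. Inside the GC-richest group, where 23.5% of all genes were called lower, 7 of 8 lysosomal genes and 6 of 7 cholesterol and fatty acid genes were called lower. Between these and the lists without a call lay 4 of 8 genes of folding and glycosylation, 3 of 6 heat shock genes, 10 of 24 solute carriers, 6 of 15 zinc finger genes, 3 of 8 other immediate early genes, 3 of 8 RAB GTPases, 1 of 5 luminal genes, 1 of 6 genes of unfolded protein and amino acid stress and 1 of 7 actin-binding genes. In other lists 0 of 10 cytosolic and 0 of 14 mitochondrial ribosomal protein genes, 0 of 9 genes of respiratory complex I, 0 of 20 replication-dependent histones, 0 of 8 of RNA polymerase II and Mediator, 0 of 6 tubulins and 0 of 6 antioxidant genes were called lower there. The median transcript of these lists ran from 493.5 bases for histones to 2209 for RNA polymerase II and Mediator. Of all GC-richest genes, 4.78% were called lower among the shortest transcripts and 18.95% in the next length group. Against those shares counts of 0 in lists this small are near the background. Whether these lists differ from other genes of like length and GC content was not tested.

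HCT-116, a colorectal carcinoma line treated in the same way (91 live and 92 fixed cells), gives the values side by side. Of 6185 genes tested in both lines 451 were called lower in the cells labelled HepG2 and 437 in HCT-116 after rescaling, 303 in both, which is 67.2% of the former and 69.3% of the latter. Called higher were 45 and 22, and 7 in both, 15.6% and 31.8%. Rescaled list medians in HCT-116 were -1.73 for AP-1 genes, -0.49 for other immediate early genes, -0.65 for snoRNAs, 0.24 for ribosomal proteins, -0.23 for desmosomes and adherens junctions and -0.15 for tight junctions. For single genes the rescaled log2 ratio in HCT-116 was -4.22 for FOS, -3.55 for PKP3, -1.54 for CTSD and -0.94 for KRT8, all below 0. It was -0.20 for CLTC, 0.08 for PABPC1, -0.39 for ISG15 and -0.78 for CDKN1A, genes called higher in the cells labelled HepG2, PABPC1 as given only (1.11 (0.89 rescaled)). Of the 10 largest ratios above, HCT-116 had 3.53 for RN7SL2, 2.03 for RNA28S5, 1.13 for MIR4714 and 1.12 for HLA-DRB1. ADIRF had 0.32 there, GPX2 0.20 and IFI6 -0.03, and no value is given for CEACAM6, CALML5 and MSMB. MIR4714, HLA-DRB1 and GPX2 had means under 5 TPM in HCT-116. The GC-richest group had 22.98% called lower in HCT-116 and the poorest 0.25%, with Pearson's r at -0.55 over 5780 genes. Whether any of these values differ between the lines was not tested, since each treatment counts as 1 sample in each line.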

How the data were processed

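Single cells of HCT-116 and of cells labelled HepG2 were sequenced after Smart-seq2 and Nextera library preparation. The authors quantified reads with kallisto 0.46.0 on a GRCh38 transcriptome after FastQC (submitters' processing notes) and deposited gene tables in TPM, summed from transcripts with tximport per the study's methods. Transcript tables deposited beside them are named TPM, but their values step like CPM relative to all reads. They were taken as CPM, and used only for read totals and the share of reads assigned, which rest on that reading. Depth limits precision, since a cell had an inferred 1000000 to 3700000 reads, and intervals cover counting error only.

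Labels name 69 live and 90 fixed HepG2 cells, against 68 and 83 columns, and column numbers could not be matched to single labels, so that columns were grouped by prefix. The log2 ratio of mean TPM used a pseudocount of 0.1 TPM and genes whose live and fixed means averaged at least 5 TPM (7436 of 29551). A ratio of 2-fold or more is termed called, higher or lower. With 1 sample per treatment no test was run. The rescaling divides each cell by its median ratio over 6513 genes above 0 TPM in at least 90% of cells. Members and gene lists were chosen with earlier results of these data known. Named were, per list, the most abundant member and those of largest ratio, the 10 extreme genes each way with a mean of at least 20 TPM (3553 genes), and a list of genes of interest; further genes were named after their values were seen. Transcript length and GC content came from GENCODE, promoters from RefSeq GRCh38.p14. Alternatives varied scaling, summary, pseudocount, filter, cells and fold. Scripts ran in Python 3.11.15 with numpy 2.4.6, scipy 1.17.1, pandas 2.3.3 and matplotlib 3.10.9. Only the steps for the log2 ratio and the rescaling were checked on simulated data. A set of 23 gene names had been turned into dates in the deposited table, 10 of them tested. Some genes and 1 gene list are not reported here.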

Additional observations from a re-analysis of the deposited data

Results flagged for a closer look

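A set of 4 entries, all short noncoding RNAs, drew attention because they were at least 2-fold lower in fixed cells of 1 line and at least 2-fold higher in fixed cells of the other on both scales. The difference between the lines was not tested. MIR573 had a log2 ratio of fixed over live of -1.65 in the cells labelled HepG2 (means of 35.4 and 11.2 TPM) and of 1.46 in HCT-116 (3.47 and 9.74 TPM). RNA5-8S5 had a log2 ratio of fixed over live of 1.41 in the cells labelled HepG2 (means of 10.02 and 26.8 TPM) and of -3.05 in HCT-116 (49.1 and 5.85 TPM). SNORA24 had a log2 ratio of fixed over live of -1.17 in the cells labelled HepG2 (means of 16.8 and 7.39 TPM) and of 1.13 in HCT-116 (16.4 and 36.1 TPM). SNORD11 had a log2 ratio of fixed over live of -1.74 in the cells labelled HepG2 (means of 41.9 and 12.4 TPM) and of 1.63 in HCT-116 (11.2 and 34.9 TPM). In the cells labelled HepG2 the medians over cells of MIR573, SNORA24 and SNORD11 were 0 in live and fixed cells, so that these ratios rest on a minority of cells.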

How the results depend on the processing

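No paired analysis was possible because each treatment counts as 1 sample with no test, and nothing shows that a column number found in both treatments marks a pair. Calls are given here as a percent of the genes tested, since the filter changes that number. The 6.32% called lower became 2.501% at 3-fold, 9.24% at a mean of at least 1 TPM, 3.69% at 20 TPM and 9.63% with no filter, and the 2.47% called higher became 0.619%, 4.61%, 1.604% and 5.52%. The genes tested were 12507 at 1 TPM, 3553 at 20 TPM and 29547 with no filter. The share called higher also fell with scaling, to 1.25% after rescaling and 1.35% with ribosomal RNA left out, whereas the share called lower was 8.43% and 7.95%. With alternatives chosen after seeing the data, all rescaled, the higher share was 1.36% without the very similar columns, 1.502% without cells of under 60% of reads assigned and 1.24% in cells paired on reads.

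The AP-1 median of -2.75 was -1.63 at filters of 1 and of 20 TPM, -0.81 with no filter and -3.75 with medians over cells. The integrin, laminin and plexin median of -1.75 was -0.79 at 1 TPM, -0.91 at 20 TPM and -0.24 with no filter. Repeated gene families had -2.23 and short noncoding RNAs 0.96 at 20 TPM. With medians over cells ribosomal RNA had 0.71 and snoRNAs 0. In rescaled cells paired on reads, snoRNAs had -1.57. The list of snoRNA host and nuclear long noncoding RNAs turned there from 0.39 to -0.25. The direction of ACTG2 turned with the difference of mean log2(TPM + 1), at 0.0304, and that of UPK1A with medians, at -2.16. That of HIST1H4C, -0.69, turned under both, at 0.12 and 0.48. Other named genes called as given lost the call. With medians over cells these included OAS1, RNU12, SNORA9, MIR4714 and LOC107985919, all at 0, and CEACAM5, CLDN3, GADD45B and IFITM1, at 0.63, -0.99, -0.66 and 0.80. ACTG2, MIR573, SNORA24 and SNORD11 had medians of 0 in live and in fixed cells, which ends their calls as well. In cells paired on reads the genes that lost the call included ACTN4, EIF4G1, GADD45B, HSPA1A, HSPA1B, IFITM1, PFKL, S100A11 and TACC3, between -0.996 and 0.96, and with rescaling as well DDIT4 and RNA5-8S5, at 0.84 and 0.98. BTG2, HNRNPL, HSP90AA1, KRT7, PABPC1, RMRP, RPS27L, S100A11 and SNHG25 lost it with rescaling. BTG2, OAS1, S100A11 and UPK1A lost it with the difference of mean log2(TPM + 1), at 0.85, 0.96, 0.99 and 0.68. GADD45B and SRSF4 lost it at a pseudocount of 1, and ACTN4, PFKL and S100A11 without the similar columns. Medians of some lists also turned. Chromatin regulators went from -0.36 to 0.18 at 1 TPM and 0.16 with no filter, and keratins from -0.41 to 0.096 with no filter. Nuclear envelope genes went from -0.17 to 0.16 at 20 TPM and 0.12 in cells paired on reads. Histones went from 0.39 to -0.08 at 1 TPM, -0.09 with no filter and -0.19 in rescaled paired cells. Short noncoding RNAs, at 0.16, ran from -0.40 with no filter to -0.05 with ribosomal RNA left out, with -0.13 after rescaling. Zinc finger genes, at 0.12, and HLA genes, at 0.15, had -0.08 and -0.03 after rescaling and -0.01 and -0.02 as a difference of mean log2(TPM + 1). The causes were not tested, except that a filter changes which genes are counted.

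Limits are the single sample per treatment, libraries of fixed cells made after the storage week, a cell line label that its markers go against, and TPM as a share of what was assigned. Reads on snoRNA and hairpin entries cannot be told apart from reads on host RNA, and TPM of such short entries is not directly comparable with that of mRNA.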

Other observations

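Of 42 tested S phase genes 2 were called lower (4.76% against 8.43% of all tested genes rescaled) and 0 higher on both scales, at a median of 0.20 (0.01 rescaled): UHRF1, which keeps DNA methylation through replication, with 19.4 TPM in live against 6.09 TPM in fixed cells, and MCM2, of the replicative helicase, with 50.1 TPM in live against 20.6 TPM in fixed cells. Of 53 G2/M genes TACC3, a spindle protein, and RANGAP1 were called lower at -1.27 (-1.39 rescaled) and -1.09 (-1.24 rescaled) (3.77% against 8.43% of all tested genes rescaled), and the median was 0.06 (-0.03 rescaled). Kinesins had 1 call in 16 (6.25% against 8.43% of all tested genes rescaled), KIFC1 with -1.28 (-1.38 rescaled). Replication-dependent histones, whose mRNAs end without a poly(A) tail, had a median of 0.39 (0.11 rescaled) over 35, which turned to -0.08 at a filter of 1 TPM, -0.09 with no filter and -0.19 in rescaled cells paired on reads. Their most abundant member HIST1H4C had 1148 ± 1232 TPM in live against 709.8 ± 446 TPM in fixed cells, a log2 ratio of -0.69 that was 0.48 with medians over cells.

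Of 140 tested zinc finger (ZNF) genes 8 were called lower (5.71% against 8.43% of all tested genes) and 1 higher after rescaling, at a median of 0.12 (-0.08 rescaled). RNA polymerase II and Mediator had 0.38 (0.20 rescaled) over 35 genes with MED22 as the only call, at -1.78 (-1.95 rescaled) (2.86% against 8.43% of all tested genes rescaled). Of 13 tested chromatin regulators with very long coding sequences 3 were called lower (23.1% against 8.43% of all tested genes rescaled), SRCAP, EHMT1 and HCFC1, and the median was -0.36 (-0.59 rescaled), which turned to 0.18 at a filter of 1 TPM and 0.16 with no filter. Among 31 RAB GTPases, switches of membrane traffic, 4 were called lower after rescaling (12.9% against 8.43% of all tested genes), RAB40C, RAB24, RAB17 and RAB31, while RAB1A had 114.6 TPM in live against 166.3 TPM in fixed cells. Estrogen receptor and luminal genes had -0.08 (-0.27 rescaled) over 22, with STC2, a secreted glycoprotein, at -2.30 (-2.55 rescaled), and TFF3 at 0.999 (0.80 rescaled).

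The entries MIR6723, MIR4461, SNORA109, MTRNR2L2 and MTRNR2L8 together took 34.4 ± 7.45% of the gene table sum in live cells (20.6 to 62.7) and 32.3 ± 6.26% in fixed cells (15.6 to 56.2). MTRNR2L2 and MTRNR2L8 are nuclear genes that resemble mitochondrial 16S ribosomal RNA.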
